A study of Mus musculus with 12 samples.

Results

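Vascular endothelium and medullary epithelium lie side by side in the thymus, and here the fractions of both that lack a Kit ligand reporter were compared by RNA sequencing. Stromal cells were sorted from the thymus of C57 BL6 mice carrying a KitL-tomato reporter, in which tomato fluorescence marks cells that express Kit ligand. Live lineage-negative cells that were EpCAM-, CD31+ and tomato- were collected as tomato- vascular endothelial cells (VEC). Live lineage-negative cells that were EpCAM+, CD31-, UEA1+, Ly51- and tomato- were collected as tomato- medullary thymic epithelial cells (mTEC). The 6 libraries compared, 3 tomato- VEC and 3 tomato- mTEC, were taken by their labels from 12 in the series. The other 6 are tomato+ VEC and tomato+ cortical epithelial cells (cTEC), and where no reporter class is named, VEC and mTEC mean the tomato- populations. All groups carried the reporter allele, so none is a wild-type control. The labels do not give the age of the mice, whether animals were pooled, or whether replicates were separate mice, so p-values measure the spread between these libraries, which may be technical.

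Thymic blood vessels are the port through which bone marrow progenitors enter the organ, mostly across venules at the border of cortex and medulla, and mature T cells leave by the same region. Endothelial cells display selectins and integrin ligands for this traffic, and they export sphingosine 1-phosphate. Medullary epithelial cells attract positively selected thymocytes with chemokines and show them self-antigens on MHC class II. Under the control of Aire and Fezf2 they transcribe many genes otherwise restricted to peripheral tissues, which serves to remove self-reactive T cells.

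The VEC libraries held 9092775 to 10050186 counts and the mTEC libraries 8388869 to 11807130. A count was found for 13406 to 14266 genes in a VEC library and for 16708 to 17015 in an mTEC library. In a principal component analysis, 73.5% of variance lay along an axis that parted VEC from mTEC. The next axis (10.3%) set VEC replicate 1 apart from VEC replicate 2, at scores of 115 and -101, with the other 4 libraries between -14.3 and 3.18. Levels are CPM, library-size-scaled counts with trimmed-mean factors. Changes are log2 of VEC over mTEC with their standard error (SE), from edgeR's quasi-likelihood test with Benjamini-Hochberg adjustment over 13560 tested genes, and a gene was called at an adjusted p under 0.05. Folds are ratios of summed, scaled counts, and a gene with no count in a population gets a lower bound from a floor of 3 counts over that population. Ratios that rest on 1 to 3 counts carry a 95% interval, which covers counting error only.

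Of the tested genes, 30.5% were called: 1598 (11.8%) higher in VEC and 2544 (18.8%) higher in mTEC, around a median log2 change of -0.15 over all tested genes. Changes toward mTEC were the larger ones, with a median absolute log2 change of 6.92 among those called against 2.43 among those called toward VEC, where values of genes with no count in a population depend on the prior count. A count in each mTEC library and none in any VEC library was seen for 1183 genes, and the reverse for 69. These 2 shares, 11.8% and 18.8%, are the background for the counts given for each gene list. List members with few counts in a population passed the low-count filter mainly through the other. That largely set the direction of their calls. Libraries of the populations did not overlap, with VEC above, for 19.0% of tested genes, and with mTEC above for 29.5%. These 19.0% and 29.5% are the background wherever named genes are said not to overlap. Such genes were named mainly for their calls and levels, so the lack of overlap adds little to the calls.

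**Figure D1:**
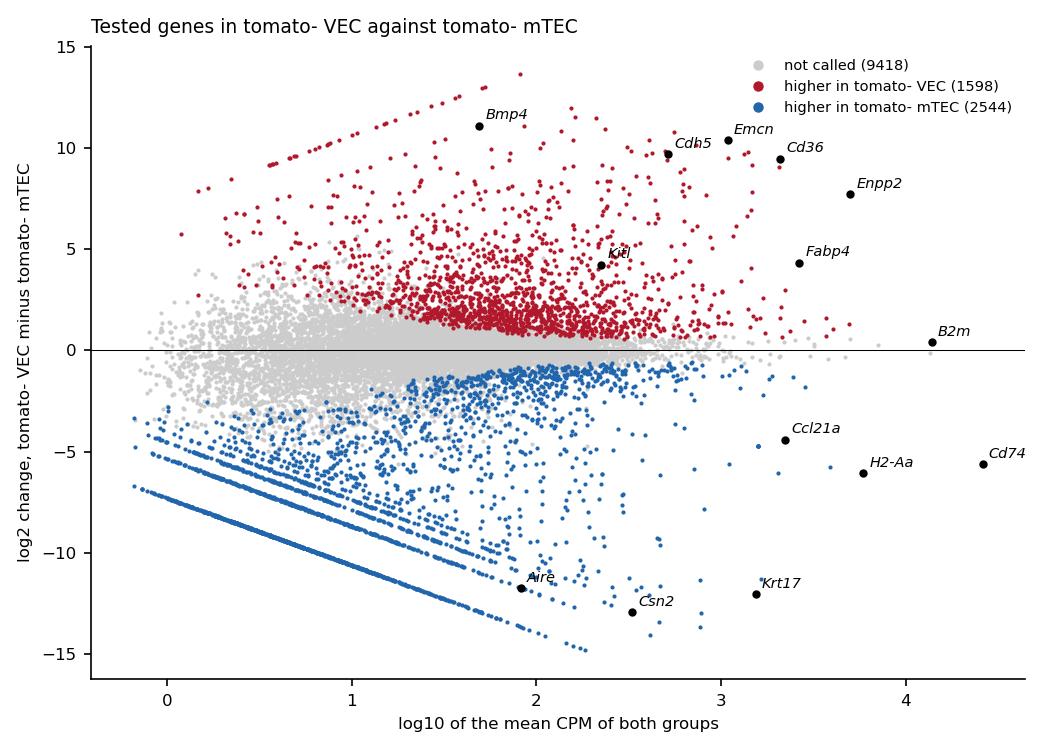
Each point is a tested gene, placed by the log10 of its mean CPM over both populations (x axis) and its log2 change of tomato- VEC over tomato- mTEC (y axis). Red and blue points are the 1598 and 2544 called genes. The straight bands at the lower left are genes with 0 or few counts in VEC, whose fitted changes depend on the prior count.

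The largest changes with no overlap and at least 20 CPM in the higher population were of differing function, and several rest on a lower bound. Toward VEC they included Clec1a, a C-type lectin receptor of endothelium, read at 143.5, 73.4 and 88.5 CPM in VEC and at 0 CPM in each mTEC library. Hhex, a homeobox factor of blood and vessel development, was read at 38.8, 77.0 and 68.8 CPM in VEC and at 0 CPM in each mTEC library. St8sia4, a polysialyltransferase, was read at 105.8, 100.4 and 108.1 CPM in VEC and at 0 CPM in each mTEC library. Cysltr1, a receptor of cysteinyl leukotrienes, was read at 76.4, 118.0 and 34.7 CPM in VEC and at 0 CPM in each mTEC library. The others were Klhl4, Hcls1, Tll1, Prss23, Lhx6, Vsig2, Tie1 and Ctla2b. Toward mTEC they included Il1r2, a decoy receptor of interleukin 1, read at 432.6, 345.4 and 252.8 CPM in mTEC and at 0 CPM in each VEC library. Skint1, which selects a subset of gamma-delta T cells in the thymus, was read at 235.9, 230.9 and 198.2 CPM in mTEC and at 0 CPM in each VEC library. Gal, which encodes the neuropeptide galanin, was read at 76.2, 432.2 and 1.64 CPM in mTEC and at 0 CPM in each VEC library, and ranged widely among the mTEC libraries, with a call that was lost without VEC replicate 2 (highest adjusted p 0.0539). Others were S100a8, Krt7, Pip5k1b, Krt14, Serpinb2, Hal, Skint10 and Lad1.

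The genes behind the sort are given as a description because the gates used their proteins. Pecam1 and Epcam matched the gates, while Enpep and Kitl did not in full. Pecam1, which encodes CD31, was read at 5243, 3537 and 3517 CPM in VEC and at 7.87, 13.3 and 2.13 CPM in mTEC. Epcam was read at 350.4, 377.6 and 358.1 CPM in mTEC and at 0.107, 0.205 and 0 CPM in VEC. Enpep, which encodes Ly51, was read at 16.3, 0 and 36.7 CPM in mTEC and 0, 0.205 and 0.672 in VEC, so 2 of the 3 mTEC libraries held RNA of a protein the gate excluded. Kitl, the gene of the reporter, was read at 378.1, 454.7 and 449.6 CPM in VEC and at 36.7, 4.66 and 26.7 CPM in mTEC, although both populations had been gated as tomato-. The 3 VEC libraries lay above every mTEC library for Kitl, by 17.9-fold (log2 change 4.23 ± 0.67, adjusted p = 0.00298). On the scale of all 12 libraries, tomato- VEC held 393.1, 472.0 and 449.7 CPM of Kitl. Each value was above every tomato+ cTEC library (182.5, 234.2 and 249.9) and under every tomato+ VEC library (808.7, 1546 and 775.4).

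Endothelial identity genes were all higher in VEC. The list held 20 genes, each was tested, and each was called higher in VEC, beside 11.8% of all tested genes, with a median log2 change of 8.49. Among the adhesion genes, Cdh5 (VE-cadherin, the adherens junction protein of endothelium) was read at 1026, 1133 and 924.5 CPM in VEC and at 0.399, 2.75 and 0.738 CPM in mTEC (log2 change 9.68 ± 0.68, adjusted p = 6.6e-05). Emcn (endomucin, a sialomucin of capillaries and veins) was read at 2055, 2381 and 2091 CPM in VEC and at 0.0997, 4.9 and 0.246 CPM in mTEC (log2 change 10.37 ± 1.22, adjusted p = 0.000734). Every VEC library was above every mTEC library for both genes. The angiopoietin receptors differed in their mTEC level: Tie1 was read at 406.3, 288.7 and 280.6 CPM in VEC and at 0.0997, 0.119 and 0.0821 CPM in mTEC, a ratio of 3317-fold (counting interval 1135 to 16088). Tek, which binds angiopoietins, was read at 504.9, 473.9 and 487.5 CPM in VEC and at 14.1, 25.7 and 10.8 CPM in mTEC, a ratio of 30.6-fold. Of the transcription factors, the ETS factor Fli1 was read at 879.5, 1130 and 968.3 CPM in VEC and at 0.399, 1.55 and 1.31 CPM in mTEC. Ets1 was read at 702.8, 440.6 and 858.8 CPM in VEC and at 13.9, 13.7 and 25.8 CPM in mTEC. Sox18, a SOX factor of vessel development, was read at 141.3, 233.6 and 124.5 CPM in VEC and at 0.498, 0.955 and 0.903 CPM in mTEC. VEC lay above mTEC without overlap for each of these. The summed level of the list was 11867 to 14204 CPM in VEC and 67.6 to 92.6 CPM in mTEC, and no member was at 0 throughout the mTEC libraries. Erg and Tal1 had the weakest calls (adjusted p = 0.0452 and 0.0385). Erg was not called without VEC replicate 1, 2 or 3 or mTEC replicate 2 or 3 (highest adjusted p 0.115), nor Tal1 without VEC replicate 1, 2 or 3 or mTEC replicate 2 or 3 (highest adjusted p 0.0802).

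**Figure D2:**
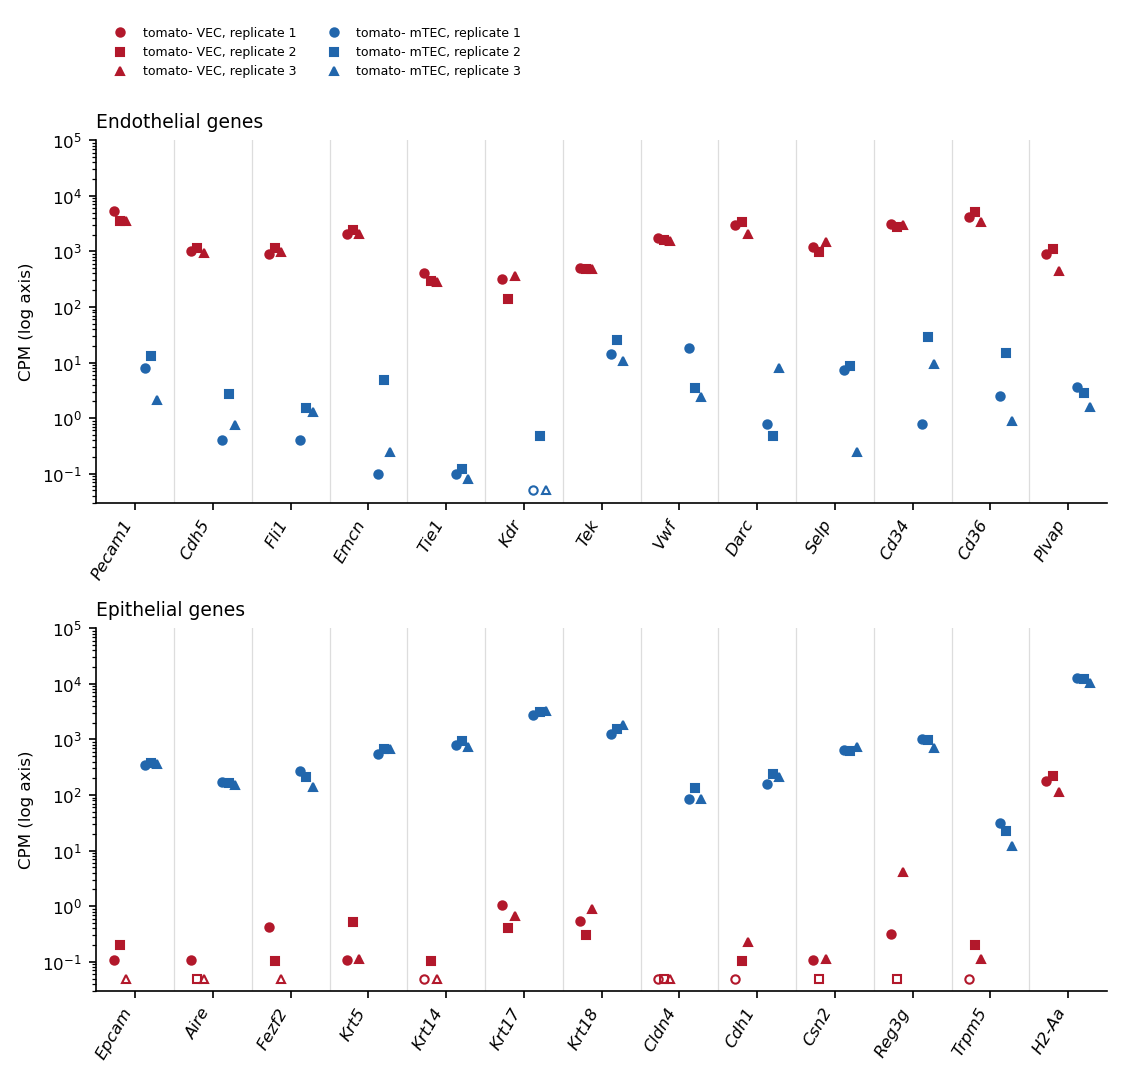
CPM on a log axis for 13 endothelial genes (top) and 13 epithelial genes (bottom), with one symbol per library. Open symbols mark 0 counts and are drawn at 0.05 CPM. Red VEC symbols lie above blue mTEC symbols for every gene in the top panel and under them for every gene in the bottom panel.

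Promoters of genes at both ends of this contrast were read for 3 short motifs, since the members moved together. The windows are the 250 bases before the annotated start, from RefSeq on GRCm38.p6, which is not the build of the counts. AGGAAG is a binding core of ETS factors, a family central to endothelial genes. CACCTG is the E-box bound by Zeb and Snail repressors of epithelial genes, and TATAAA is a TATA box. Each was searched on both strands, and none overlaps another. Promoters matched 12 of the 20 endothelial identity genes (17 promoters), 9 of 16 keratins (10 promoters), 10 of 19 epithelial transcription factors (13 promoters) and 12 of 25 epithelial junction genes (18 promoters). AGGAAG was in 47.1% of endothelial, 40% of keratin, 27.8% of epithelial junction and 15.4% of epithelial factor promoters, against 29.5% of all 32851 promoters. CACCTG was in 60% of keratin, 38.9% of epithelial junction, 23.1% of epithelial factor and 11.8% of endothelial promoters, against 17.2% of all. TATAAA was in 11.8% of endothelial, 20% of keratin, 11.1% of epithelial junction and 0% of epithelial factor promoters, against 12.4% of all. The 5 promoters printed were chosen after their motifs were seen. Emcn (chr3:137340828-137341077, + strand) holds AGGAAG on either strand, 174 and 93 bases before the start, and Tie1 (chr4:118489850-118490099, - strand) holds it once, 219 bases before. Krt5 (chr15:101712906-101713155, - strand) holds the E-box 128 bases before the start, and Epcam (chr17:87635729-87635978, + strand) holds it 187 and 19 bases before. Aire (chr10:78043611-78043860, - strand) holds TATAAA 29 bases, the E-box 17 bases and AGGAAG 247 bases before its start. Motif letters are in capitals, each sequence runs 5′ to 3′ toward the gene, and a match is a description of the letters only.
Emcn: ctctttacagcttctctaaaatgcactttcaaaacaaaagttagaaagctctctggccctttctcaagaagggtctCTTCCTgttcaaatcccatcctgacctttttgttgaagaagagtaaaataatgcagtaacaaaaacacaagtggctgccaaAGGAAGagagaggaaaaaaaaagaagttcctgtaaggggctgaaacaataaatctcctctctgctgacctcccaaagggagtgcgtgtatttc
Tie1: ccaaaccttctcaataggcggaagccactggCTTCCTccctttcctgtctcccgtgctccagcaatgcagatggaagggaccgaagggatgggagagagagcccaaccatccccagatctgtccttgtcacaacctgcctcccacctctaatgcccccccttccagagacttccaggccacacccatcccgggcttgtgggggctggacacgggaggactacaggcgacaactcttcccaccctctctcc
Krt5: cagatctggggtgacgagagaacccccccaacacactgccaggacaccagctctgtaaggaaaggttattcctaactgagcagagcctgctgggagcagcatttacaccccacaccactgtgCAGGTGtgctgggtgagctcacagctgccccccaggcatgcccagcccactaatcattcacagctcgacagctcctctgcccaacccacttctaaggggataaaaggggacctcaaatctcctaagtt
Epcam: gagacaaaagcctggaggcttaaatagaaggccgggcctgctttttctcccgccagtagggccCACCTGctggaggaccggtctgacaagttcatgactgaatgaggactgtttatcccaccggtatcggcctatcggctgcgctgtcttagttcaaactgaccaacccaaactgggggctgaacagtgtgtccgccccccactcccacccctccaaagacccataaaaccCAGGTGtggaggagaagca
Aire: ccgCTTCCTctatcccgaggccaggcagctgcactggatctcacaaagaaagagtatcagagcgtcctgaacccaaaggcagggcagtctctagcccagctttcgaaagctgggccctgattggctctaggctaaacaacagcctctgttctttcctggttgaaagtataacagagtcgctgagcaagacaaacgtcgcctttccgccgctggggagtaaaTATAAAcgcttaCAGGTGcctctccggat

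Venous genes were mostly higher in VEC. The venous list had 9 higher in VEC, 0 higher in mTEC and 3 not called of 12 tested, beside 11.8% of all tested genes called toward VEC and 18.8% toward mTEC (a median log2 change of 4.13). Selp encodes P-selectin, which binds PSGL-1 on progenitors entering the thymus. It was read at 1221, 961.5 and 1488 CPM in VEC and at 7.28, 8.6 and 0.246 CPM in mTEC (log2 change 7.85 ± 1.03, adjusted p = 0.00119). Darc, an atypical chemokine receptor of venules, was read at 2966, 3375 and 2071 CPM in VEC and at 0.797, 0.478 and 7.88 CPM in mTEC, a ratio of 799.9-fold. Nr2f2 (COUP-TFII), the factor that specifies vein, was read at 416.6, 476.3 and 533.4 CPM in VEC and at 4.88, 2.15 and 3.61 CPM in mTEC, a ratio of 130.8-fold. The populations did not overlap for these 3 genes. Vcam1, a ligand of VLA-4, differed less: it was read at 1238, 1089 and 2091 CPM in VEC and at 509.5, 581.4 and 614.8 CPM in mTEC, a ratio of 2.55-fold (log2 change 1.37 ± 0.27, adjusted p = 0.00706), and was not called when a change of at least 1 in log2 was required (adjusted p = 0.123). Icam1, the LFA-1 ligand, overlapped at 553.6, 542.0 and 521.7 CPM in VEC and at 466.0, 621.5 and 429.7 CPM in mTEC (log2 change 0.09 ± 0.20, adjusted p = 0.787). Icam2, its constitutive endothelial relative, was read at 494.9, 447.0 and 502.9 CPM in VEC and at 3.79, 3.7 and 2.87 CPM in mTEC, a ratio of 141.4-fold.

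Of the 15 homing genes, 13 were tested, with 9 higher in VEC, 0 higher in mTEC and 4 not called. Cd34 and Podxl, sialomucins that carry selectin ligands, were both called, Cd34 at 3155, 2716 and 2928 CPM in VEC and at 0.797, 28.8 and 9.35 CPM in mTEC. Podxl was read at 50.2, 99.7 and 85.0 CPM in VEC and at 0.0997, 0.717 and 0.246 CPM in mTEC. Genes of high endothelial venules were uneven among the VEC libraries. Glycam1, a secreted mucin of these venules, was read at 604.2, 4.4 and 16.2 CPM in VEC, and its call (adjusted p = 0.0123) was lost without mTEC replicate 3 (highest adjusted p 0.0513). Chst4, a sulfotransferase that makes L-selectin ligands, was read at 71.0, 0.102 and 0.224 CPM and Fut7, the fucosyltransferase of the same glycans, at 25.4, 11.4 and 0 CPM, and neither was tested. VEC replicate 1 was the highest of the 3 VEC libraries for Glycam1, Chst4 and Fut7. Madcam1, an addressin of mucosal vessels, was read at 6.11, 0.102 and 0 CPM in VEC and 113.2, 47.7 and 11.5 CPM in mTEC, and was not called (adjusted p = 0.0682). The platelet genes Pf4 and Ppbp were also highest in VEC replicate 1, at 53.1, 0 and 0.336 and 102.6, 0 and 0.224 CPM over the 3 VEC libraries, and their part in these differences was not tested.

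Among the enzymes that build sialylated and sulfated glycans, 12 of the 18 listed were tested, with 5 higher in VEC, 2 higher in mTEC and 5 not called. With all 12 libraries in the fit, 3 were called toward VEC. St3gal6, a sialyltransferase of selectin ligands, was read at 598.6, 522.9 and 518.6 CPM in VEC and at 17.9, 19.5 and 23.9 CPM in mTEC (log2 change 4.74 ± 0.23, adjusted p = 1.69e-05). B3gnt3, which extends core 1 glycans of these ligands, was read at 94.7, 74.4 and 75.7 CPM in VEC and at 1.4, 0 and 2.13 CPM in mTEC, a ratio of 62.4-fold. In the other direction, Fut1, an enzyme of the H antigen, was read at 26.2, 35.5 and 43.6 CPM in mTEC and at 0, 0.102 and 0 CPM in VEC, a ratio of 999.6-fold (counting interval 179.0 to 39520). UEA1, the lectin of the mTEC gate, binds the H antigen, so Fut1 is close to what the gate used. The populations did not overlap for these 3 genes.

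Capillary genes of fatty acid handling were high in VEC, with 8 higher in VEC, 1 higher in mTEC and 2 not called among 11 of the 12 genes. Cd36, a fatty acid translocase, was read at 4085, 5153 and 3333 CPM in VEC and at 2.49, 14.7 and 0.903 CPM in mTEC (log2 change 9.47 ± 1.10, adjusted p = 0.000693). Gpihbp1, which anchors lipoprotein lipase to the capillary wall, was read at 263.6, 403.3 and 829.9 CPM in VEC and at 1.3, 2.63 and 0.738 CPM in mTEC, a ratio of 342.5-fold. The fatty acid binding proteins parted: Fabp4 was read at 4253, 6393 and 4520 CPM in VEC and at 240.0, 280.7 and 233.4 CPM in mTEC. Fabp5 was read at 690.2, 559.4 and 650.2 CPM in mTEC and at 99.4, 170.2 and 140.7 CPM in VEC (log2 change -2.21 ± 0.25, adjusted p = 0.000582). No library of one population overlapped the other for these 4 genes. Lpl, the lipase itself, ranged from 4.68 to 51.4 CPM in mTEC and from 0.428 to 6.05 CPM in VEC, and was not called (adjusted p = 0.149). Aqp1, a water channel of continuous capillaries, was read at 1541, 1864 and 957.5 CPM in VEC and at 0.897, 0.836 and 2.05 CPM in mTEC, a ratio of 1095-fold.

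Arterial and lymphatic genes split between the populations. Of the arterial list, 12 of the 13 were tested, with 5 higher in VEC, 3 higher in mTEC and 4 not called and a median log2 change of -0.16. When a change of at least 1 in log2 was required, 3 were called toward VEC. Nrp1, a co-receptor of VEGF and semaphorins, was read at 510.6, 558.3 and 654.8 CPM in VEC and at 15.2, 25.2 and 18.2 CPM in mTEC (log2 change 4.88 ± 0.28, adjusted p = 2.91e-05). Gja1, a connexin, was read at 867.0, 924.0 and 1401 CPM in VEC and at 477.0, 485.7 and 320.8 CPM in mTEC (log2 change 1.31 ± 0.27, adjusted p = 0.00756), which was not called when a change of at least 1 in log2 was required (adjusted p = 0.159). The connexin of arterial endothelium, Gja4, stood the other way, at 178.3, 223.9 and 183.2 CPM in mTEC and at 0.214, 0.102 and 11.9 CPM in VEC (log2 change -5.59 ± 1.41, adjusted p = 0.0183). The Notch effector Hey1 was read at 14.8, 17.7 and 18.1 CPM in mTEC and at 0, 0.307 and 0 CPM in VEC, a ratio of 157.9-fold (counting interval 53.7 to 768.2). VEC thus held 3 Hey1 counts in all, and its arterial markers were not uniformly high. Of the lymphatic list, 6 of the 9 were tested, with 2 higher in VEC, 2 higher in mTEC and 2 not called. The 2 calls toward VEC became 1 without VEC replicate 3 or mTEC replicate 2, and the 2 toward mTEC became 1 without VEC replicate 2 or mTEC replicate 3. Lyve1, a hyaluronan receptor of lymphatic and some venous endothelium, was read at 75.2, 35.1 and 52.2 CPM in VEC and at 6.88, 1.19 and 1.07 CPM in mTEC (log2 change 4.15 ± 0.87, adjusted p = 0.00859). Prox1, the factor that defines lymphatic endothelium, was read at 4.18, 0 and 0 CPM in VEC and was not tested. Pdpn, which marks lymphatic endothelium and thymic epithelium, was read at 145.6, 204.7 and 404.2 CPM in mTEC and at 3.32, 23.8 and 48.2 CPM in VEC (log2 change -3.32 ± 0.86, adjusted p = 0.0206), and its call was lost without VEC replicate 2 or mTEC replicate 3 (highest adjusted p 0.0738).

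Genes that handle sphingosine 1-phosphate (S1P), the lipid that draws mature T cells out of the thymus, were divided between the populations. Of 13 tested, 5 were higher in VEC, 4 were higher in mTEC and 4 were not called. The transporter Spns2, which exports S1P from endothelium, was read at 286.9, 240.1 and 188.9 CPM in VEC and at 1.2, 1.55 and 0 CPM in mTEC (log2 change 8.08 ± 0.91, adjusted p = 0.000601), and the receptor S1pr1 at 558.9, 442.2 and 469.4 CPM in VEC and at 12.1, 7.29 and 10.1 CPM in mTEC (log2 change 5.64 ± 0.29, adjusted p = 2.03e-05). Enzymes that degrade S1P stood on each side. The lyase Sgpl1 was read at 282.9, 314.0 and 283.3 CPM in mTEC and at 17.8, 15.9 and 22.0 CPM in VEC (log2 change -3.98 ± 0.24, adjusted p = 3.34e-05), and the phosphatase Sgpp1 at 331.6, 407.3 and 224.1 CPM in mTEC and at 0.107, 11.1 and 0.112 CPM in VEC (log2 change -6.40 ± 1.42, adjusted p = 0.0108). The receptors also parted, since S1pr3 was read at 96.1, 161.9 and 166.8 CPM in mTEC and at 0.214, 0.307 and 0.896 CPM in VEC, a ratio of 306.8-fold. The lipid phosphate phosphatase Ppap2a was read at 169.3, 131.6 and 177.5 CPM in VEC and at 38.9, 42.9 and 37.4 CPM in mTEC (log2 change 2.01 ± 0.25, adjusted p = 0.000861), and its relative Ppap2b at 145.5, 290.3 and 289.7 CPM in VEC and at 58.8, 49.9 and 57.6 CPM in mTEC (log2 change 2.12 ± 0.31, adjusted p = 0.00205). None of these 7 genes overlapped between the populations, which held for 19.0% (VEC above) and 29.5% (mTEC above) of all tested genes. The kinases that make S1P were not called: Sphk1 was read at 3.43, 0.102 and 4.71 CPM in VEC and at 21.0, 10.9 and 13.6 CPM in mTEC (log2 change -2.46 ± 1.16, adjusted p = 0.162). Sphk2 was read at 2.46 to 17.6 CPM in VEC and at 4.98, 11.7 and 19.0 CPM in mTEC (log2 change -0.03 ± 0.89, adjusted p = 0.988).

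Receptors of the VEGF and angiopoietin systems were higher in VEC, while most tested ligands were not called. Over 17 of the 19 genes there were 10 higher in VEC, 1 higher in mTEC and 6 not called, with a median log2 change of 3.45. Kdr (VEGFR2) was read at 313.8, 141.5 and 357.3 CPM in VEC and at 0, 0.478 and 0 CPM in mTEC (log2 change 10.84 ± 0.95, adjusted p = 0.000177). Flt1 (VEGFR1) was read at 288.5, 289.8 and 354.8 CPM in VEC and at 10.2, 7.88 and 1.81 CPM in mTEC, a ratio of 49.9-fold. The only ligand called toward VEC whose call held in every leave-out was Angpt2, the context-dependent Tek ligand, read at 633.9, 334.8 and 267.2 CPM in VEC and at 33.0, 27.7 and 52.6 CPM in mTEC (log2 change 3.45 ± 0.42, adjusted p = 0.000844). Vegfa was read at 9.85, 11.3 and 2.24 CPM in VEC and at 12.4, 12.5 and 10.9 CPM in mTEC (log2 change -0.62 ± 0.77, adjusted p = 0.622). Pgf was read at 0, 17.4 and 47.8 CPM in VEC and at 60.2, 122.2 and 114.7 CPM in mTEC (log2 change -2.19 ± 1.33, adjusted p = 0.276). Kdr, Flt1 and Angpt2 did not overlap between populations, and Vegfa did. Angptl4, called toward VEC at an adjusted p of 0.0293, was not called without VEC replicate 1 or 2 or mTEC replicate 1, 2 or 3 (highest adjusted p 0.0885), and Angptl2, called toward mTEC at 0.0242, was not called without VEC replicate 2 or mTEC replicate 1, 2 or 3 (highest adjusted p 0.0602).

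Growth factors for T-cell progenitors had calls in both directions. Of 16 listed, 13 were tested, with 4 higher in VEC, 3 higher in mTEC and 6 not called and a median log2 change of -0.05. Over all tested genes, 11.8% were called toward VEC and 18.8% toward mTEC, and the count toward mTEC is near that share. Toward VEC, apart from Kitl, stood the Notch ligand Dll4, which commits progenitors to the T lineage, read at 143.2, 88.3 and 66.1 CPM in VEC and at 3.49, 5.61 and 0.246 CPM in mTEC (log2 change 5.01 ± 0.96, adjusted p = 0.00622). Bmp4, a morphogen that acts on thymic epithelium, was read at 108.6, 116.7 and 69.2 CPM in VEC and at 0, 0 and 0.0821 CPM in mTEC, with 1 count in the 3 mTEC libraries and a ratio of 3025-fold (counting interval 542.5 to 119536). Toward mTEC stood Il7, the survival cytokine of immature thymocytes, read at 229.6, 355.2 and 556.8 CPM in mTEC and at 21.9, 3.68 and 9.86 CPM in VEC (log2 change -5.01 ± 0.69, adjusted p = 0.00152), and Wnt4, read at 22.2, 32.6 and 26.1 CPM in mTEC and at 0.107, 0.205 and 0.112 CPM in VEC, a ratio of 186.5-fold. Dll4, Bmp4, Il7 and Wnt4 did not overlap between the populations. Dll1 was read at 13.4, 99.4 and 69.7 CPM in VEC and at 5.48, 9.2 and 14.7 CPM in mTEC with overlap, and its call (adjusted p = 0.0332) was lost without VEC replicate 2 or 3 or mTEC replicate 1 or 2 (highest adjusted p 0.0991). Igf1 was read at 126.9, 47.8 and 91.4 CPM in mTEC and at 25.7, 2.56 and 20.3 CPM in VEC, and its call (adjusted p = 0.0488) was lost without VEC replicate 1 or 3 or mTEC replicate 1, 2 or 3 (highest adjusted p 0.16). Il15 (log2 change -0.05 ± 0.36, adjusted p = 0.938), Flt3l (log2 change 0.61 ± 0.89, adjusted p = 0.681) and Tslp (log2 change 2.31 ± 1.17, adjusted p = 0.192) were not called.

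**Figure D3:**
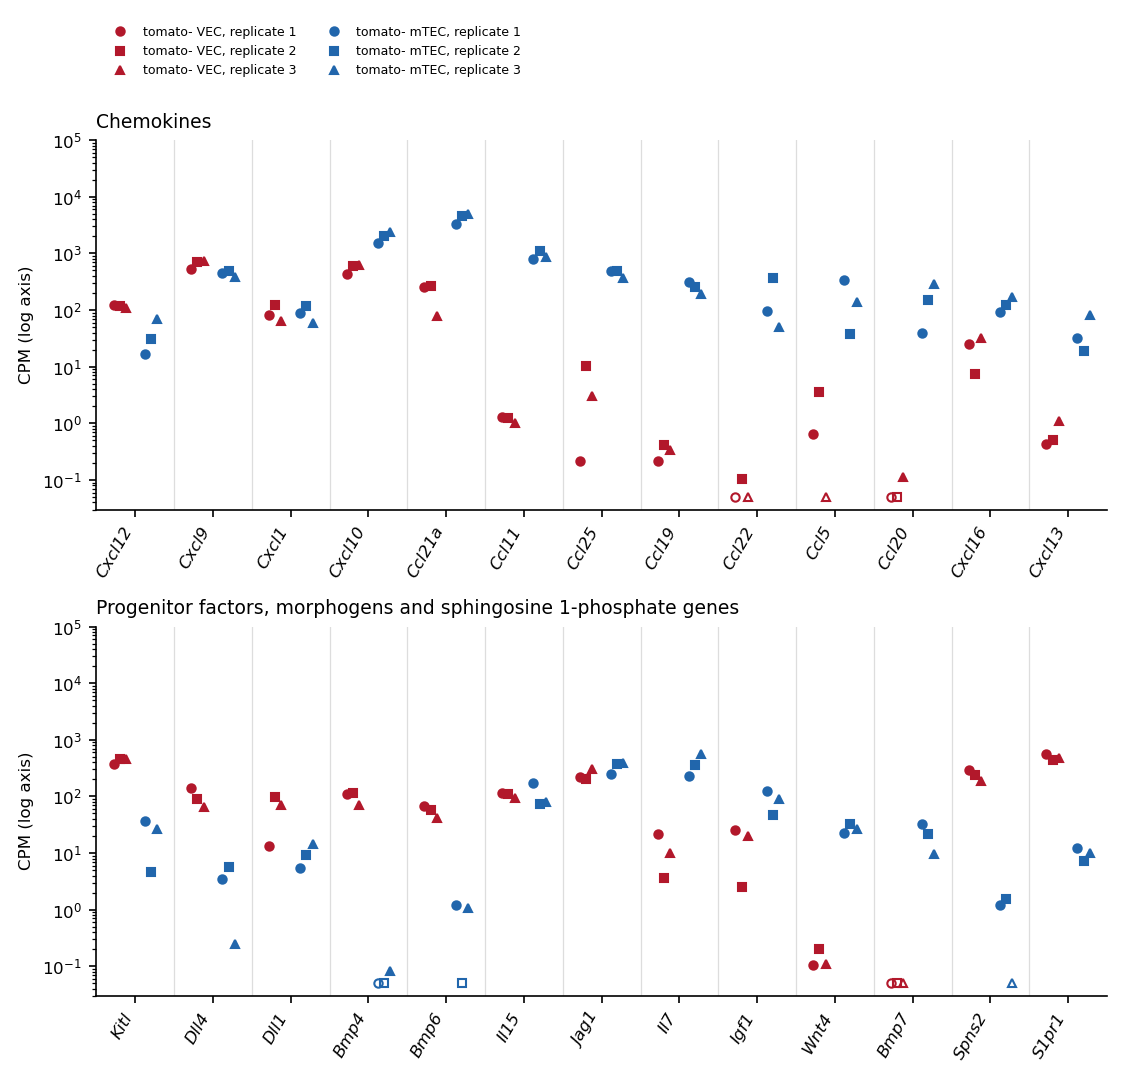
CPM on a log axis for 13 chemokine genes (top) and 13 growth factor, morphogen and S1P genes (bottom), with one symbol per library. Open symbols mark 0 counts, drawn at 0.05 CPM. In the top panel blue mTEC symbols lie above red VEC symbols for 10 genes, Cxcl12 and Cxcl9 have VEC above, and Cxcl1 overlaps.

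Chemokine genes were called toward mTEC in 18 of 23 tested, against 18.8% of all tested genes. 1 gene, Cxcl12, was called toward VEC, and 4 were not called, with a median log2 change of -4.71. Ccl21a, a CCR7 ligand that draws thymocytes to the medulla, was read at 3274, 4555 and 4894 CPM in mTEC and at 254.0, 266.5 and 77.3 CPM in VEC (log2 change -4.41 ± 0.50, adjusted p = 0.000592). Its counts equal those of another symbol, and Ccl21b and Ccl21c nearly share theirs, so reads among these copies cannot be assigned. Ccl21a, Ccl21b and Ccl21c each count among the 18 calls, which are thus not all separate signals. Ccl19, the second CCR7 ligand, was read at 314.6, 250.4 and 191.8 CPM in mTEC and at 0.214, 0.409 and 0.336 CPM in VEC (log2 change -9.56 ± 0.41, adjusted p = 1.41e-05). The CCR4 ligand Ccl22 was read at 96.6, 373.7 and 49.8 CPM in mTEC and at 0, 0.102 and 0 CPM in VEC, a ratio of 4311-fold (counting interval 773.4 to 170313). Ccl25, which attracts CCR9-bearing progenitors, was read at 481.6, 484.5 and 365.2 CPM in mTEC and at 0.214, 10.4 and 3.03 CPM in VEC (log2 change -6.59 ± 1.02, adjusted p = 0.00268). The eosinophil attractant Ccl11 was read at 799.1, 1108 and 878.8 CPM in mTEC and at 1.29, 1.23 and 1.01 CPM in VEC (log2 change -9.61 ± 0.29, adjusted p = 6.9e-06). For all 5 every mTEC library was above every VEC library. The interferon-induced CXCR3 ligands were present in both populations. Cxcl10 was read at 1525, 2023 and 2366 CPM in mTEC and at 436.0, 588.2 and 630.1 CPM in VEC (log2 change -1.84 ± 0.24, adjusted p = 0.00116), a call lost with all 12 libraries in the fit (adjusted p = 0.101). Cxcl9 was read at 536.5, 709.3 and 747.4 CPM in VEC and at 456.9, 483.8 and 390.3 CPM in mTEC and was not called (adjusted p = 0.0636). Cxcl12, the CXCR4 ligand that retains progenitors, was read at 123.9, 117.6 and 107.7 CPM in VEC and at 16.9, 31.2 and 68.3 CPM in mTEC (log2 change 1.58 ± 0.49, adjusted p = 0.0422), and its call was lost without VEC replicate 1, 2 or 3 or mTEC replicate 1 or 2 (highest adjusted p 0.119). Of 5 atypical receptors, 3 were called toward VEC, among them Darc and Cxcr7, a scavenger of Cxcl12, read at 32.2, 106.5 and 99.9 CPM in VEC and at 10.2, 4.78 and 12.2 CPM in mTEC (log2 change 3.13 ± 0.60, adjusted p = 0.00635).

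Medullary identity genes were mostly higher in mTEC. Of 19 tested in a list of 20, 1 was higher in VEC, 14 were higher in mTEC and 4 were not called, with a median log2 change of -8.69 (-7.54 with the 2 genes at 0 in one group set to their bounds). Aire, the regulator of peripheral antigen expression, was read at 174.5, 165.2 and 153.2 CPM in mTEC and at 0.107, 0 and 0 CPM in VEC. Fezf2, the second such regulator, was read at 274.2, 210.4 and 141.9 CPM in mTEC and at 0.428, 0.102 and 0 CPM in VEC (log2 change -10.10 ± 0.73, adjusted p = 7.46e-05). Receptors of the TNF family that drive medullary maturation showed smaller ratios. Tnfrsf11a (RANK) was read at 143.9, 203.4 and 186.1 CPM in mTEC and at 61.0, 71.7 and 74.2 CPM in VEC (log2 change -1.37 ± 0.24, adjusted p = 0.00432). Its call was lost with all 12 libraries in the fit (adjusted p = 0.134) and when a change of at least 1 in log2 was required (0.0936). Cd40 was read at 326.0, 320.8 and 228.3 CPM in mTEC and at 13.7, 24.4 and 9.41 CPM in VEC (log2 change -4.20 ± 0.41, adjusted p = 0.000296). Aire, Fezf2, Tnfrsf11a and Cd40 did not overlap between the populations, and VEC libraries held a RANK level of 61.0 to 74.2 CPM. Ltbr, the lymphotoxin beta receptor, was the member called toward VEC, read at 51.3, 48.4 and 80.9 CPM in VEC and at 7.57, 8.84 and 25.1 CPM in mTEC (log2 change 2.12 ± 0.57, adjusted p = 0.0246), and its call was lost without VEC replicate 3 or mTEC replicate 1 or 2 (highest adjusted p 0.0771). The NF-kappaB genes downstream, Relb (log2 change -0.75 ± 0.56, adjusted p = 0.384), Nfkb2 (log2 change -0.18 ± 0.36, adjusted p = 0.768) and Map3k14 (log2 change -0.63 ± 0.59, adjusted p = 0.491), were not called.

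Markers of cortical epithelium were also found in mTEC. Of 11 tested, 3 were higher in VEC, 7 were higher in mTEC and 1 was not called, with 1 higher in VEC when a change of at least 1 in log2 was required. Psmb11, the thymoproteasome subunit that defines cTEC, was read at 25.6, 16.5 and 39.5 CPM in mTEC and at 0.214, 0.102 and 0.224 CPM in VEC. Prss16, a cortical serine protease, was read at 15.6, 21.0 and 18.2 CPM in mTEC and at 0.107, 0.102 and 0.224 CPM in VEC. The tomato+ cTEC libraries held 518 to 706 CPM of Psmb11 and 829 to 1318 CPM of Prss16 on the scale of all 12 libraries. Both genes were called toward mTEC against VEC, and the part of cortical cells in the mTEC results was not tested.

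Tissue-restricted antigens formed a set with few tested members. Of 30 genes listed, 29 were in the table and 11 passed the filter, with 0 higher in VEC, 10 higher in mTEC and 1 not called, and 18 were not tested. A mean of at least 5 CPM was reached by 1 listed antigen in VEC and by 13 in mTEC. The tested antigens thus passed the filter mainly through mTEC, which largely set the direction of their calls in advance. Csn2, the milk protein beta-casein, was read at 635.2, 613.3 and 738.8 CPM in mTEC and at 0.107, 0 and 0.112 CPM in VEC, a ratio of 9397-fold (counting interval 2601 to 77601). Reg3g, an intestinal antimicrobial lectin, was read at 1003, 993.5 and 694.8 CPM in mTEC and at 0.321, 0 and 4.15 CPM in VEC (log2 change -9.25 ± 1.18, adjusted p = 0.00102). S100a8, a calprotectin subunit of neutrophils and keratinocytes, was read at 376.1, 463.6 and 262.2 CPM in mTEC and at 0 CPM in each VEC library, which is at least 3314-fold higher. These 3 were high in each mTEC library and did not overlap with VEC. Other antigens varied from one mTEC library to the next. Crp, an acute-phase protein of liver, was read at 69.9, 234.1 and 33.6 CPM, Apoa1 at 0, 66.6 and 34.4 CPM and Sst, which encodes somatostatin, at 31.1, 6.21 and 0.246 CPM. Over the 13 listed antigens with a mean of at least 5 CPM in mTEC, the median coefficient of variation between mTEC libraries was 63.3%. It was 16.8% over 12 keratins and 28.2% over all 11672 genes with such a mean. It was also 72.1% over 8 homing genes and 77.1% over 7 myeloid and dendritic markers, so such spread was not particular to the antigens. These lists were not matched for level.

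Genes of thymic tuft cells, chemosensory cells of the medulla, were mostly higher in mTEC at low levels. All 17 in the table were tested, with 2 higher in VEC, 13 higher in mTEC and 2 not called and a median log2 change of -7.72 (-5.86 with the 5 genes at 0 in one group set to their bounds). With a filter of 5 CPM in 3 libraries, 8 were called toward mTEC. Trpm5, the cation channel of taste transduction, was read at 31.7, 22.5 and 12.2 CPM in mTEC and at 0, 0.205 and 0.112 CPM in VEC. Pou2f3, the factor that specifies tuft cells, was read at 12.5, 5.37 and 12.7 CPM in mTEC and at 0 CPM in each VEC library. Alox5 and Hpgds, of eicosanoid synthesis, were read at 17.5, 26.4 and 28.0 and at 41.5, 36.1 and 35.8 CPM in mTEC and at or under 0.307 CPM in VEC. For each of these 4 genes every mTEC library was above every VEC library. The members called toward VEC were 2 further eicosanoid genes: Ltc4s, read at 67.7, 82.3 and 93.0 CPM in VEC and at 16.2, 23.3 and 10.5 CPM in mTEC (log2 change 2.28 ± 0.40, adjusted p = 0.00461), and Ptgs1, read at 204.2, 190.8 and 139.0 CPM in VEC and at 3.69, 12.3 and 0.246 CPM in mTEC (log2 change 5.06 ± 1.06, adjusted p = 0.00866).

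Keratins, epithelial factors and epithelial junction genes were mostly higher in mTEC. Of 16 keratins, 12 were tested, with 0 higher in VEC, 10 higher in mTEC and 2 not called and a median log2 change of -11.30 (-9.81 with the 3 genes at 0 in one group set to their bounds). Krt5 was read at 549.4, 666.3 and 682.2 CPM in mTEC and at 0.107, 0.512 and 0.112 CPM in VEC. Krt14, its partner in medullary and basal epithelium, was read at 790.6, 953.4 and 730.3 CPM in mTEC and at 0, 0.102 and 0 CPM in VEC. Of the pair of simple epithelia, Krt8 was read at 491.9, 488.4 and 420.1 CPM in mTEC and at 0, 0.102 and 0.112 CPM in VEC. Krt18 was read at 1236, 1553 and 1820 CPM in mTEC and at 0.536, 0.307 and 0.896 CPM in VEC. The highest keratin count in VEC was Krt20, at 26.6, 2.76 and 1.12 CPM, with 35.8, 83.5 and 177.8 CPM in mTEC, and it was not called (adjusted p = 0.0696). Of 16 tested epithelial transcription factors, 0 were higher in VEC, 14 were higher in mTEC and 2 were not called. Foxn1, the master factor of thymic epithelium, was read at 49.3, 37.7 and 34.3 CPM in mTEC and at 0, 0.102 and 0 CPM in VEC (log2 change -9.71 ± 0.97, adjusted p = 0.000336). Pax9, a factor of the pharyngeal pouch, was read at 48.7, 62.5 and 72.5 CPM in mTEC and at 0 CPM in each VEC library, which is at least 578.8-fold higher. Hoxa3, expressed in pouch and neural crest, was read at 5.68, 16.4 and 16.9 CPM in VEC and at 6.48, 5.14 and 5.91 CPM in mTEC and was not called (adjusted p = 0.29).

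Junction genes were divided between the populations. Of 23 tested epithelial junction genes, 1 was higher in VEC, 17 were higher in mTEC and 5 were not called. Cdh1 (E-cadherin) was read at 159.2, 236.8 and 212.6 CPM in mTEC and at 0, 0.102 and 0.224 CPM in VEC, and the tight-junction claudin Cldn4 at 84.3, 132.0 and 83.2 CPM in mTEC and at 0 CPM in each VEC library, which is at least 905.6-fold higher. Among desmosome genes Dsp was read at 248.1, 326.5 and 303.1 CPM in mTEC and at 0.107, 0.205 and 3.47 CPM in VEC (log2 change -7.87 ± 1.05, adjusted p = 0.00128), whereas Dsg2 was present in both populations, at 305.2, 392.9 and 525.0 CPM in mTEC and at 202.4, 290.4 and 128.2 CPM in VEC, and was not called (adjusted p = 0.0637). The member called toward VEC was F11r (JAM-A), a junction protein of both lineages, read at 1044, 755.4 and 758.0 CPM in VEC and at 291.2, 286.9 and 308.0 CPM in mTEC (log2 change 1.53 ± 0.20, adjusted p = 0.00115). Of 17 tested genes of endothelial junctions, 11 were higher in VEC, 2 were higher in mTEC and 4 were not called. Tjp1 (ZO-1) was read at 114.2, 189.3 and 189.7 CPM in VEC and at 26.2, 29.0 and 17.9 CPM in mTEC (log2 change 2.75 ± 0.33, adjusted p = 0.000836), while cingulin (Cgn), a tight-junction adaptor, was read at 62.4, 55.8 and 58.5 CPM in mTEC and at 0, 0 and 0.112 CPM in VEC (log2 change -10.24 ± 0.86, adjusted p = 0.000151). The populations did not overlap for either.

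**Figure D4:**
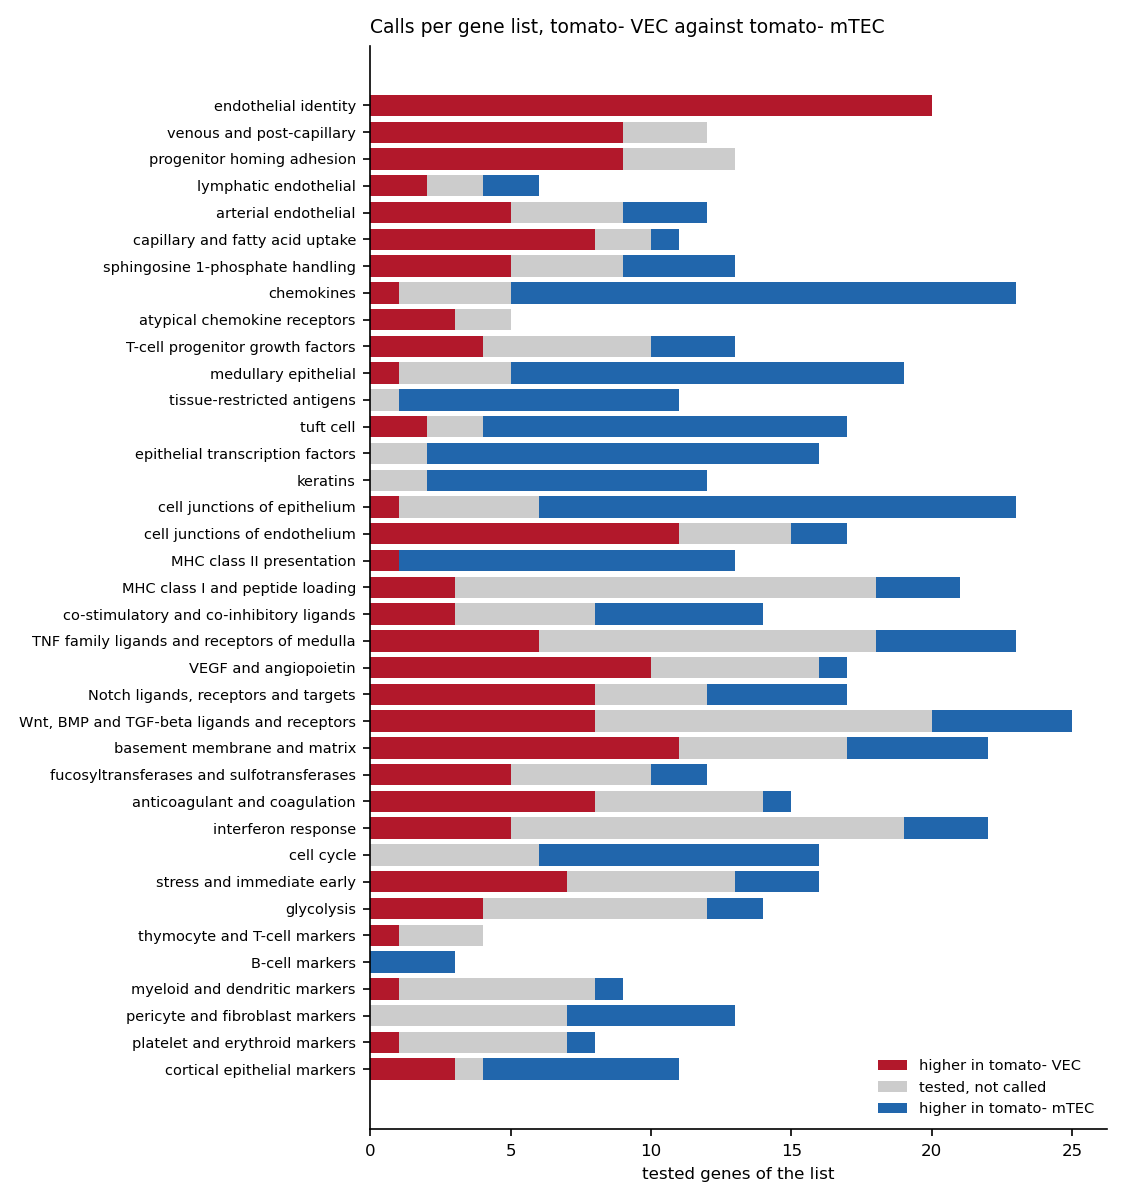
Number of tested genes per list (x axis) that were called higher in tomato- VEC (red), called higher in tomato- mTEC (blue) or not called (grey). The endothelial identity bar is red throughout, and the keratin and tissue-restricted antigen bars are blue apart from 2 and 1 genes not called.

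Antigen presentation differed by class. For MHC class II, 13 of 15 genes were tested, with 1 higher in VEC, 12 higher in mTEC and 0 not called and a median log2 change of -5.68. The class II chain H2-Aa was read at 12483, 12133 and 10322 CPM in mTEC and at 182.0, 223.3 and 113.3 CPM in VEC (log2 change -6.07 ± 0.33, adjusted p = 2.39e-05). Its partner H2-Ab1 was read at 6592, 6653 and 9558 CPM in mTEC and at 187.0, 88.7 and 146.1 CPM in VEC (log2 change -5.76 ± 0.37, adjusted p = 4.1e-05). Cd74, the invariant chain, took 4.51% to 5.67% of all mTEC counts and 0.0666% to 0.148% of VEC counts. Ciita, the transactivator of the class, was read at 43.2, 42.6 and 52.0 CPM in mTEC and at 0.107, 1.02 and 0 CPM in VEC (log2 change -6.86 ± 1.16, adjusted p = 0.00389). No VEC library reached an mTEC library for these genes. The exception was the cathepsin Ctsl, which processes the invariant chain in cortical thymic epithelium, read at 6036, 5921 and 4730 CPM in VEC and at 1287, 1412 and 2876 CPM in mTEC (log2 change 1.58 ± 0.33, adjusted p = 0.00842). Ctss, the other cathepsin of the list, was read at 601.8, 562.4 and 353.8 CPM in mTEC and at 22.5, 0.102 and 27.6 CPM in VEC (log2 change -4.92 ± 1.20, adjusted p = 0.0164). The call of Ctss was lost with all 12 libraries in the fit (adjusted p = 0.0632), and that of Ctsl when a change of at least 1 in log2 was required (0.0712). MHC class I genes, by contrast, were called in 6 of 21, beside 30.5% of all tested genes, with a median log2 change of 0.25. B2m was read at 15233, 14934 and 17361 CPM in VEC and at 11030, 12347 and 12040 CPM in mTEC (log2 change 0.42 ± 0.17, adjusted p = 0.0977). H2-K1 was read at 3394, 3141 and 2362 CPM in VEC and at 1912, 2295 and 2036 CPM in mTEC (log2 change 0.51 ± 0.20, adjusted p = 0.0927). Neither was called, though every VEC library was above every mTEC library for both. That held for 8 of the 21 class I genes, and the reverse for 4, beside 19.0% and 29.5% of all tested genes. Of the 6 calls, only that of Tap2, a subunit of the peptide transporter, held in every leave-out, read at 134.4, 138.4 and 93.6 CPM in VEC and at 44.2, 45.3 and 35.3 CPM in mTEC (log2 change 1.55 ± 0.28, adjusted p = 0.00503), though not when a change of at least 1 in log2 was required (0.0508). The 3 class I calls toward VEC became 1 without mTEC replicate 1 or 2, and the 3 toward mTEC became 0 without mTEC replicate 1 and 1 without VEC replicate 3 or mTEC replicate 2 or 3. With limma voom or all 12 libraries in the fit 5 were called toward VEC. None was called in either direction when a change of at least 1 in log2 was required, and none toward mTEC with the replicate block.

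Ligands that signal to T cells included members on each side. Of 14 tested, 3 were higher in VEC, 6 were higher in mTEC and 5 were not called. Toward mTEC stood Cd80, a CD28 ligand, read at 46.9, 41.7 and 40.7 CPM in mTEC and at 0, 0.102 and 0 CPM in VEC. Icosl, the ICOS ligand, was read at 381.4, 442.4 and 269.9 CPM in mTEC and at 0.214, 0.205 and 10.9 CPM in VEC (log2 change -6.61 ± 1.35, adjusted p = 0.00778). Cd70, the CD27 ligand, was read at 55.7, 43.0 and 30.9 CPM in mTEC and at 0 CPM in each VEC library. Toward VEC stood Cd200, an inhibitory ligand of endothelium, read at 793.2, 603.6 and 949.7 CPM in VEC and at 52.4, 56.5 and 79.4 CPM in mTEC (log2 change 3.64 ± 0.28, adjusted p = 9.07e-05), and Pvr, the CD226 and TIGIT ligand, read at 70.2, 42.6 and 75.2 CPM in VEC and at 6.08, 4.06 and 6.24 CPM in mTEC (log2 change 3.52 ± 0.46, adjusted p = 0.00115). The populations did not overlap for these 5 genes. Among the TNF family genes of the medulla, 23 of the 24 were tested, with 6 higher in VEC, 5 higher in mTEC and 12 not called, beside 11.8% and 18.8% of all tested genes. Tnfrsf9 (4-1BB) was read at 314.7, 390.4 and 806.6 CPM in VEC and at 98.2, 124.8 and 43.5 CPM in mTEC (log2 change 2.50 ± 0.49, adjusted p = 0.00679), and its call was lost with all 12 libraries in the fit (adjusted p = 0.224). Its ligand Tnfsf9 was read at 91.5, 84.9 and 54.0 CPM in mTEC and at 0.107, 0.102 and 0 CPM in VEC. Tnfsf11 (RANKL) had no count in any of the 6 libraries.

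Notch receptors and targets were also divided. Of 17 tested, 8 were higher in VEC, 5 were higher in mTEC and 4 were not called. With a filter of 5 CPM in 3 libraries, 3 were called toward mTEC. Notch1 was read at 143.9, 159.8 and 179.7 CPM in VEC and at 37.5, 49.0 and 40.9 CPM in mTEC (log2 change 1.92 ± 0.24, adjusted p = 0.001). Notch2 was read at 284.8, 345.8 and 358.4 CPM in mTEC and at 53.8, 46.7 and 28.6 CPM in VEC (log2 change -2.94 ± 0.29, adjusted p = 0.000336). The target Nrarp was read at 52.7, 74.1 and 35.7 CPM in VEC and at 7.57, 1.79 and 5.25 CPM in mTEC (log2 change 3.47 ± 0.65, adjusted p = 0.00577). Heyl was read at 7.18, 8.72 and 12.6 CPM in mTEC and at 0.107, 0 and 0 CPM in VEC, a ratio of 274.0-fold (counting interval 48.8 to 10857). No library overlapped between the populations for these 4 genes. The ligand Jag1 was read at 217.4, 203.8 and 309.4 CPM in VEC and at 249.2, 372.6 and 385.2 CPM in mTEC, with overlap, and was not called (adjusted p = 0.236).

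Of the Wnt, BMP and TGF-beta genes, 25 were tested, with 8 higher in VEC, 5 higher in mTEC and 12 not called. Over all tested genes, 11.8% were called toward VEC and 18.8% toward mTEC. Without VEC replicate 1, 9 were called toward mTEC. BMP ligands parted: with Bmp4, Bmp6 was higher in VEC, read at 69.0, 57.0 and 40.8 CPM in VEC and at 1.2, 0 and 1.07 CPM in mTEC (log2 change 6.15 ± 1.02, adjusted p = 0.00365). Bmp7 was read at 32.0, 22.1 and 9.76 CPM in mTEC and at 0 CPM in each VEC library, which is at least 190.9-fold higher. The 6 receptors and co-receptors called in this list all stood toward VEC. Acvrl1 (ALK1), the endothelial receptor of BMP9, was read at 128.0, 77.6 and 89.6 CPM in VEC and at 0.0997, 0 and 0 CPM in mTEC, with a single count in mTEC and a ratio of 3005-fold (counting interval 538.8 to 118717). Tgfbr2 was read at 182.2, 175.5 and 141.4 CPM in VEC and at 6.48, 19.3 and 13.9 CPM in mTEC (log2 change 3.65 ± 0.44, adjusted p = 0.000782). Tgfbr3 (betaglycan) was read at 481.1, 475.1 and 578.9 CPM in VEC and at 18.0, 19.6 and 26.0 CPM in mTEC (log2 change 4.59 ± 0.25, adjusted p = 2.39e-05). The BMP targets Id1 (log2 change 0.65 ± 0.53, adjusted p = 0.42) and Id3 (log2 change 0.71 ± 0.33, adjusted p = 0.157) were not called, and their libraries overlapped.

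Basement membrane genes separated by chain. Over 22 tested, 11 were higher in VEC, 5 were higher in mTEC and 6 were not called, beside 11.8% and 18.8% of all tested genes. The 5 calls toward mTEC became 3 without VEC replicate 1 or mTEC replicate 2, and 2 without mTEC replicate 3. Col4a1 was read at 1311, 1313 and 1630 CPM in VEC and at 120.4, 189.3 and 144.2 CPM in mTEC (log2 change 3.23 ± 0.24, adjusted p = 8.08e-05), Lama5 at 93.8, 115.3 and 120.8 CPM in VEC and at 7.08, 10.5 and 9.6 CPM in mTEC (log2 change 3.60 ± 0.33, adjusted p = 0.000223). Lamc1 was read at 249.5, 211.2 and 195.8 CPM in VEC and at 21.8, 23.8 and 20.6 CPM in mTEC (log2 change 3.31 ± 0.24, adjusted p = 7.07e-05). Sparcl1, a matricellular protein of vessels, was read at 3310, 2544 and 2983 CPM in VEC and at 0.698, 11.8 and 3.36 CPM in mTEC (log2 change 9.14 ± 0.98, adjusted p = 0.000487). On the epithelial side stood Lamb3, a chain of laminin-332, read at 25.8, 22.2 and 52.0 CPM in mTEC and at 0.428, 0.512 and 0.784 CPM in VEC (log2 change -5.83 ± 0.73, adjusted p = 0.000943), and Col17a1, the hemidesmosome collagen, read at 16.1, 13.4 and 10.3 CPM in mTEC and at 0, 0 and 0.336 CPM in VEC, a ratio of 121.9-fold (counting interval 41.4 to 593.4). Every library of one population was above the other for these 6 genes. Lama3, a laminin alpha chain of epithelium, was called toward mTEC at an adjusted p of 0.0184, and its call was lost without VEC replicate 3 or mTEC replicate 3 (highest adjusted p 0.0628).

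The called genes of coagulation stood toward VEC, apart from the initiator of clotting. Of 15 tested, 8 were higher in VEC, 1 was higher in mTEC and 6 were not called. Thbd (thrombomodulin) was read at 221.5, 238.8 and 277.9 CPM in VEC and at 13.7, 21.1 and 20.2 CPM in mTEC (log2 change 3.75 ± 0.28, adjusted p = 7.98e-05). Tfpi, the inhibitor of tissue factor, was read at 208.9, 226.7 and 215.3 CPM in VEC and at 9.07, 14.0 and 10.5 CPM in mTEC (log2 change 4.28 ± 0.28, adjusted p = 4.59e-05). F3, tissue factor itself, was read at 43.2, 126.6 and 195.4 CPM in mTEC and at 0.107, 0.102 and 0.112 CPM in VEC, with 3 counts over the VEC libraries and a ratio of 1183-fold (counting interval 404.6 to 5740). F8 was read at 348.4, 470.5 and 520.9 CPM in VEC and at 2.89, 3.58 and 6.4 CPM in mTEC (log2 change 6.69 ± 0.41, adjusted p = 3.34e-05). Vwf, its carrier, was read at 1764, 1622 and 1538 CPM in VEC and at 18.6, 3.46 and 2.38 CPM in mTEC (log2 change 7.65 ± 0.87, adjusted p = 0.000621). None of these 5 genes overlapped between the populations.

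Of the programmes that are not tied to lineage, the cell cycle was called toward mTEC only, and the others had calls in both directions. Of 16 cell-cycle genes tested, 0 were higher in VEC, 10 were higher in mTEC and 6 were not called. Over all tested genes, 11.8% were called toward VEC and 18.8% toward mTEC. Top2a was read at 155.9, 44.2 and 137.5 CPM in mTEC and at 3.86, 0.921 and 0 CPM in VEC (log2 change -6.13 ± 1.20, adjusted p = 0.00678). Aurka was read at 20.5, 13.3 and 11.8 CPM in mTEC and at 0, 0.102 and 0 CPM in VEC, a ratio of 422.4-fold (counting interval 75.4 to 16720). Pcna was read at 83.1, 77.0 and 81.5 CPM in mTEC and at 59.7, 79.1 and 57.8 CPM in VEC and was not called (adjusted p = 0.463). Interferon-response genes were called in 8 of 22, beside 30.5% of all tested genes, with 5 higher in VEC, 3 higher in mTEC and 14 not called and a median log2 change of 0.36. The 5 calls toward VEC became 3 without VEC replicate 3 or mTEC replicate 1, and 1 when a change of at least 1 in log2 was required. The 3 toward mTEC became 1 without VEC replicate 2 or mTEC replicate 2 or 3. Gbp4 was read at 444.5, 458.6 and 683.1 CPM in VEC and at 110.0, 123.1 and 89.8 CPM in mTEC (log2 change 2.30 ± 0.25, adjusted p = 0.000524). Usp18, a negative regulator of the type I response, was read at 1134, 1284 and 1217 CPM in mTEC and at 220.6, 200.2 and 250.5 CPM in VEC (log2 change -2.44 ± 0.18, adjusted p = 8.51e-05). Among 16 immediate early and stress genes, 7 were higher in VEC, 3 higher in mTEC and 6 not called, beside the same 11.8% and 18.8%. The 3 toward mTEC became 1 without mTEC replicate 2, and the 7 toward VEC became 3 when a change of at least 1 in log2 was required. Ier3 was read at 1385, 1356 and 1084 CPM in VEC and at 84.5, 160.9 and 158.5 CPM in mTEC (log2 change 3.24 ± 0.30, adjusted p = 0.000226). Hsp90aa1 was read at 451.3, 285.0 and 284.9 CPM in mTEC and at 94.2, 106.9 and 117.9 CPM in VEC (log2 change -1.68 ± 0.25, adjusted p = 0.00232). Such genes respond to tissue digestion, and any difference in handling cannot be told apart from the populations. Of 14 glycolysis genes, 4 were higher in VEC, 2 were higher in mTEC and 8 were not called, beside the same 11.8% and 18.8%. When a change of at least 1 in log2 was required, 1 in each direction was called. Slc2a1 (GLUT1) was read at 82.7, 125.3 and 109.3 CPM in VEC and at 17.8, 12.1 and 30.9 CPM in mTEC (log2 change 2.38 ± 0.42, adjusted p = 0.00465). Hk2 was read at 8.87, 64.5 and 80.6 CPM in mTEC and at 0, 0 and 0.336 CPM in VEC, with 3 counts over VEC and a ratio of 492.0-fold (counting interval 168.1 to 2388).

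Markers of other cell types were found in both populations, apart from B-cell markers, which were near 0 in VEC. Summed levels in VEC and mTEC were 70.3 to 168 and 48.4 to 71.3 CPM for 16 T-cell markers, and Cd8a had no count in the 6 libraries. Of these, 4 were tested and 1, Cd247, was called, toward VEC (log2 change 4.64), with 0 called without mTEC replicate 2. Cd3e, Cd3g, Cd4, Cd8a and Rag1 were not tested, so the sums do not rest on core T-cell genes that passed the filter. For 8 B-cell markers they were 0.224 to 0.536 and 313 to 486 CPM, nearly all from Blnk, an adaptor of B-cell receptor signalling, read at 369.8, 441.4 and 303.9 CPM in mTEC and at 0.428, 0 and 0 CPM in VEC (log2 change -11.22 ± 0.76, adjusted p = 5.61e-05). For 16 myeloid and dendritic markers they were 56.9 to 173 and 426 to 488 CPM. Lyz2 (lysozyme) made up most of the mTEC sum, at 406.0, 323.7 and 358.5 CPM in mTEC and 41.6, 0 and 0.112 CPM in VEC, with Itgax at or under 1.64 CPM. Clec9a, a dendritic cell receptor, was instead read at 31.7, 41.9 and 29.0 CPM in VEC and at 0 CPM in each mTEC library, at least 351-fold higher in VEC. For 15 pericyte and fibroblast markers the sums were 183 to 502 and 1143 to 1678 CPM, and 6 of the 13 tested were called toward mTEC. Rgs5, a pericyte gene, was read at 239.9, 445.5 and 211.2 CPM in mTEC and at 1.71, 0.409 and 4.93 CPM in VEC (log2 change -6.99 ± 0.83, adjusted p = 0.000773). Acta2, of smooth muscle, was read at 232.7, 320.7 and 369.1 CPM in mTEC and at 4.71, 2.76 and 9.64 CPM in VEC (log2 change -5.75 ± 0.52, adjusted p = 0.0002). The fibroblast proteoglycan Dcn (decorin) was read at 245.2, 119.1 and 378.6 CPM in mTEC and at 42.4, 19.0 and 5.27 CPM in VEC (log2 change -3.48 ± 0.76, adjusted p = 0.0102), and the fibroblast collagen Col1a1 at 6.98, 1.19 and 0.246 CPM in mTEC and at 0.214, 1.23 and 0.112 CPM in VEC. On the scale of all 12 libraries, tomato+ cTEC held 2057, 1976 and 1559 CPM of Dcn, above the 237.2, 115.9 and 369.9 CPM of tomato- mTEC. Dcn was thus high in sorted cortical epithelium too. Rgs5 stood the other way, at 8.62, 65.5 and 18.6 CPM in tomato+ cTEC and 232.1, 433.7 and 206.3 CPM in tomato- mTEC. In bulk samples of this kind, fewer cells of a type and less RNA per cell cannot be told apart, and the part of these markers in the mTEC levels of MHC class II, chemokine and matrix genes was not tested.

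Whether the endothelial-epithelial change differs between reporter classes was asked with the other 6 libraries. The change of tomato- VEC over tomato- mTEC was tested against that of tomato+ VEC over tomato+ cTEC, in a fit of all 12 libraries, whose scaling moves the CPM values slightly. The pairs share no library, but they differ in the epithelial type as well as in the reporter. Of 14792 genes, 456 (3.08%) were called, 228 with the higher log2 value in the tomato- pair and 228 with the lower. Bmp4 was read at 112.9, 121.1 and 69.3 CPM in tomato- VEC, 0, 0 and 0.0802 in tomato- mTEC, 12.1, 4.97 and 12.6 in tomato+ VEC and 19.1, 12.7 and 22.9 in tomato+ cTEC, so that its log2 change was 11.09 in the tomato- pair and -0.89 in the tomato+ pair, a difference of 12.06 ± 1.06 (adjusted p = 0.000277). Tomato- VEC held more Bmp4 than the other 3 groups in every library. Prss23, a serine protease, was read at 298.0, 354.5 and 291.7 CPM in tomato- VEC, 0.0964, 0 and 0.0802 in tomato- mTEC, 104.3, 61.3 and 151.9 in tomato+ VEC and 91.0, 113.6 and 30.8 in tomato+ cTEC, a difference of 11.59 ± 0.90 (adjusted p = 0.000143). Tgfbr3 was read at 500.1, 493.3 and 579.0 CPM in tomato- VEC, 17.5, 19.1 and 25.4 in tomato- mTEC, 474.4, 425.3 and 425.7 in tomato+ VEC and 315.7, 329.5 and 285.1 in tomato+ cTEC, a difference of 4.15 ± 0.29 (adjusted p = 7.46e-05). For Prss23 and Tgfbr3 mTEC was the low group, with the other 3 groups well above it. St3gal6 and Ctsl differed by 3.83 ± 0.34 and 4.48 ± 0.41 (adjusted p = 0.000277 and 0.000286). Ctsl was read at 6275, 6147 and 4731 CPM in tomato- VEC, 1245, 1375 and 2810 in tomato- mTEC, 965.2, 936.7 and 1158 in tomato+ VEC and 6576, 6497 and 8568 in tomato+ cTEC, so that it was higher in endothelium in the tomato- pair and in epithelium in the tomato+ pair.

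Il7 was read at 22.7, 3.82 and 9.86 CPM in tomato- VEC, 222.2, 345.8 and 544.0 in tomato- mTEC, 0.104, 0 and 0.321 in tomato+ VEC and 415.5, 461.9 and 555.8 in tomato+ cTEC, a difference of 6.60 ± 1.01 (adjusted p = 0.00566). Pdpn was read at 3.45, 24.8 and 48.2 CPM in tomato- VEC, 140.9, 199.3 and 394.9 in tomato- mTEC, 0.104, 0.392 and 0.107 in tomato+ VEC and 724.4, 808.6 and 670.5 in tomato+ cTEC, a difference of 8.55 ± 1.20 (adjusted p = 0.00456). Both genes stood toward epithelium in both pairs, and less so in the tomato- pair. The chemokines Ccl19 and Ccl11 stood toward epithelium more in the tomato- pair, with differences of -5.66 ± 0.66 and -5.34 ± 0.95 (adjusted p = 0.00177 and 0.013). Ccl19 was read at 0.223, 0.425 and 0.336 CPM in tomato- VEC, 304.4, 243.8 and 187.4 in tomato- mTEC, 0.312, 0.523 and 0.214 in tomato+ VEC and 6.42, 3.72 and 4.94 in tomato+ cTEC. Fas, a death receptor, was called toward mTEC in the tomato- pair and toward VEC in the tomato+ pair. It was read at 58.4, 21.0 and 26.8 CPM in tomato- VEC, 400.5, 404.2 and 261.7 in tomato- mTEC, 398.8, 350.8 and 161.3 in tomato+ VEC and 42.5, 58.7 and 87.8 in tomato+ cTEC, a difference of -5.60 ± 0.66 (adjusted p = 0.00178). Hey1 was read at 0, 0.319 and 0 CPM in tomato- VEC, 14.3, 17.2 and 17.7 in tomato- mTEC, 16.5, 139.6 and 72.9 in tomato+ VEC and 57.2, 38.2 and 51.5 in tomato+ cTEC, a difference of -7.72 ± 1.31 (adjusted p = 0.00994). Tnfsf9 was read at 0.111, 0.106 and 0 CPM in tomato- VEC, 88.5, 82.7 and 52.7 in tomato- mTEC, 121.1, 19.2 and 8.25 in tomato+ VEC and 0.0917, 2.84 and 5.63 in tomato+ cTEC, a difference of -13.88 ± 2.05 (adjusted p = 0.00513). Hey1 and Tnfsf9 were not called within the tomato+ pair (adjusted p = 0.61 and 0.105). For Fas and Tnfsf9 the tomato- VEC and tomato+ cTEC libraries were the low groups. The calls of these 12 genes held with each of the 12 libraries left out. Several of the 12 were named for their role after their values were seen. Their stability therefore does not carry to the whole test, whose 456 calls became 159 without tomato- mTEC replicate 1. For Kitl the difference between pairs was 2.08 ± 0.74 and was not called (adjusted p = 0.156), and Kitl is what the reporter gate used between classes.

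**Figure D5:**
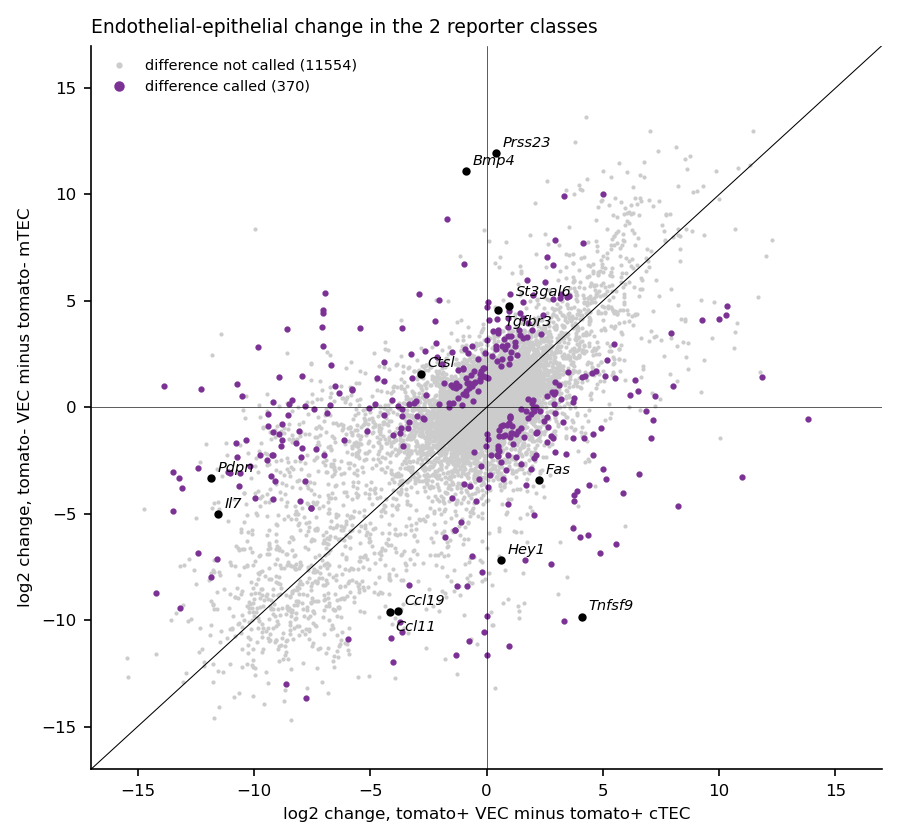
Log2 change in the tomato+ pair (x axis, tomato+ VEC over tomato+ cTEC) against that in the tomato- pair (y axis, tomato- VEC over tomato- mTEC), for 11924 genes tested in both pairs. Purple points are the 370 of these called in the test of the difference, the line marks equal changes, and the 12 named genes are in black.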

How the data were processed

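Poly(A) RNA of sorted cells was made into 12 libraries with an ultra-low-input SMARTer kit, per the labels, and 6 of them are compared here. The deposited table gives raw read counts and RPKM per gene. Reads were aligned with TopHat2 2.0.10 to mm9, per the submitters' processing notes, while for the read counter and annotation nothing is given in those sources. Deposited counts went into edgeR 4.0.16, under R 4.3.3 (trimmed-mean scaling, filterByExpr with a minimum count of 10, quasi-likelihood F test, Benjamini-Hochberg adjustment over all genes tested). The SE is the absolute log2 change divided by the square root of F. The RPKM values the authors deposited were used in an alternative with limma 3.58.1 on log2(RPKM + 1) and log2(RPKM + 0.1), and DESeq2 1.42.0 was another. On simulated counts for the main comparison (13164 genes), 13.1% of 84 calls were false, more than the threshold on adjusted p aims for. Of genes changed 2-, 4-, 8- and 16-fold there, 0%, 20%, 56% and 70% were recovered. For the difference between pairs (14373 genes), 3.57% of 28 calls were false, and 0%, 0%, 14% and 40% were recovered. Both simulations gave far fewer calls than the data, with 4142 of 13560 and 456 of 14792 genes. The adjustment is stricter where fewer genes are called, so these rates do not measure what either test of the data missed. Members and gene lists were chosen with earlier results of these data known. Genes named are the 12 largest changes per direction, up to 4 called per direction and 2 not called of each list by level, and up to 6 per direction of the difference test, and further list members were named for their role after their values were seen. Some genes that this rule names are not reported here. Among tested genes, 57 symbols with at least 50 counts have the same counts as another.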

Additional observations from a re-analysis of the deposited data

Results flagged for a closer look

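The change of endothelium over epithelium differed between the tomato- and the tomato+ pair for the 12 genes named above, by edgeR's test of the difference itself over 14792 genes. The log2 value of the tomato- pair minus that of the tomato+ pair was positive for Bmp4 (12.06 ± 1.06, adjusted p = 0.000277), Prss23 (11.59 ± 0.90, adjusted p = 0.000143), Pdpn (8.55 ± 1.20, adjusted p = 0.00456), Il7 (6.60 ± 1.01, adjusted p = 0.00566), Ctsl (4.48 ± 0.41, adjusted p = 0.000286), Tgfbr3 (4.15 ± 0.29, adjusted p = 7.46e-05) and St3gal6 (3.83 ± 0.34, adjusted p = 0.000277), in log2 units with their SE. It was negative for Tnfsf9 (-13.88 ± 2.05, adjusted p = 0.00513), Hey1 (-7.72 ± 1.31, adjusted p = 0.00994), Ccl19 (-5.66 ± 0.66, adjusted p = 0.00177), Fas (-5.60 ± 0.66, adjusted p = 0.00178) and Ccl11 (-5.34 ± 0.95, adjusted p = 0.013). The reporter class and the epithelial type change together between the pairs and cannot be told apart.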

How the results depend on the processing

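The count of 4142 called genes was 3042 to 4938 over the settings tried and 3550 to 4060 with 1 library left out. The genes called higher in VEC fell to 963 when a change of at least 1 in log2 was required. The 456 calls of the difference test became 1309 with limma voom, 269 with the replicate block, and 159 to 491 with 1 library left out. They were 287 without tomato- VEC replicate 1, 188 and 255 without tomato+ cTEC replicates 1 and 3, and 159, 192 and 220 without tomato- mTEC replicates 1, 2 and 3. The cause was not tested. Same-numbered libraries did not deviate together (correlations of 0.00, 0.00 and 0.05), and the replicate block gave 3073 calls in the main comparison. The signs of 6 genes that were not called depended on the setting, in log2 units. Cxcl1 (0.029 in the main test) came to -0.024 (DESeq2), -0.024 (relative log expression scaling), -0.058 (total counts only), -0.0062 (at least 5 CPM in 3 libraries), -0.051 (limma-trend on log2(RPKM + 1)), -0.052 (limma-trend on log2(RPKM + 0.1)) and -0.21 to 0.33 with 1 library left out. Il15 (-0.052 in the main test) came to 0.054 (limma voom), 0.075 (no low-count filter), 0.029 (all 12 libraries in the fit), 0.056 (replicate block) and -0.22 to 0.51 with 1 library left out. Nfkb2 (-0.18 in the main test) came to -0.58 to 0.12 with 1 library left out. Pf4 (1.93 in the main test) came to -1.67 (limma voom), -2.98 (replicate block), -0.40 (limma-trend on log2(RPKM + 1)), -1.66 (limma-trend on log2(RPKM + 0.1)) and -4.66 to 3.41 with 1 library left out. Ppbp (1.18 in the main test) came to -1.04 (limma voom), -3.96 (replicate block), -0.40 (limma-trend on log2(RPKM + 1)), -0.99 (limma-trend on log2(RPKM + 0.1)) and -6.89 to 3.52 with 1 library left out. Sphk2 (-0.029 in the main test) came to 0.0896 (no low-count filter), 0.041 (all 12 libraries in the fit) and -0.39 to 0.56 with 1 library left out. With 4 residual degrees of freedom and a biological coefficient of variation of 0.673, a change that was not called is not shown to be absent.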

Other observations

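Some genes outside the lists, chosen after their values were seen, also separated the populations. Enpp2 (autotaxin, which makes lysophosphatidic acid and is known from high endothelial venules) was read at 12898, 8343 and 8619 CPM in VEC and at 30.3, 73.1 and 38.8 CPM in mTEC. Il2rg, the common gamma chain of cytokine receptors, was read at 4162, 4242 and 3457 CPM in VEC and at 525.3, 701.2 and 281.7 CPM in mTEC. Each was higher in every VEC library.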
